A study of Homo sapiens with 96 samples.

Results

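The genes of cholesterol and fatty acid synthesis were followed in the human breast cancer line MDA-MB-231 through 48 h of culture with EGF and the MEK inhibitor U0126. The members were 29 genes taken by symbol, on a list chosen with earlier results of these data known. They comprised 7 genes of the mevalonate steps, 11 of the sterol steps, 3 regulators, 7 of the fatty acid steps and LPIN1 of glycerolipid synthesis. Of these, 28 had a named probe set on the array, among 11874 genes that did. FDFT1, squalene synthase, had none. The 28 genes were covered by 57 probe sets, and 19 of them had more than 1, in which case the probe set with the largest SD over all arrays was read.

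RNA was measured on 96 arrays in 3 series, named 2D03, 2D04 and 3D04 in the array titles. The first 2 series were 2D culture and the last was 3D culture. All cells had been grown to 80% confluence in full serum and had then spent 24 h in low serum, so the untreated controls share the serum withdrawal. The arms were untreated control, EGF (10 ng/ml from 0 h), vehicle DMSO for 30 min followed by EGF (DMSO-EGF), and 10 µM U0126 for 30 min followed by EGF (U0126). At 0 h there were also arrays with DMSO or U0126 alone. U0126 blocks MEK, the kinase that activates ERK, and it was the only inhibitor used. After 0 h every arm had 1 array per series at 0.5, 1, 4, 8, 12, 24 and 48 h. At 0 h each series had 2 control arrays. Means were taken over 3 windows of time, called early (0.5 and 1 h), middle (4, 8 and 12 h) and late (24 and 48 h). Nothing in the labels tells if repeats were grown as separate cultures, so p-values measure only the spread between these samples. There was 1 series of 3D culture, so culture and series cannot be told apart. The number of arrays limits the precision.

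Cholesterol is built from acetyl-CoA through mevalonate, squalene and lanosterol, and fatty acids are built from the same acetyl-CoA by carboxylation, chain extension and desaturation. The SREBP transcription factors, encoded by SREBF1 and SREBF2, switch on most genes of both pathways. When membrane sterol is scarce the SREBP precursors leave the endoplasmic reticulum with their escort SCAP and are cut to the active form, and when sterol is plentiful INSIG proteins hold them back. SREBP acts at sterol regulatory elements together with the partner factors NF-Y, which reads CCAAT, and SP1, which reads GGGCGG.

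Promoters are shown for 3 members, as the windows in which the sterol element and the partner motifs were sought. HMGCS1 and INSIG1 are shown because none of the candidate genes looked at first held the sterol element core. The RefSeq table for GRCh38.p14 held promoters of 25 of the 29 members, from 250 bases before to 50 after a start. The motif CCAAT, on either strand, stood in 19 of the 25 (76%), against 39.7% of all genes of the table. The motif GGGCGG stood in 24 of the 25 (96%), against 48.3% of all genes. The sterol element core TCACNCCAC stood in 1 of the 25 (4%), that of SREBF2, against 1.39% of all genes. A gene counted if any of its starts held the motif, and the 25 members had 36 starts. The 27305 genes of the table were not matched to the members in type or number of starts. A match is a description of letters only. In the lines below, capitals mark ATTGG, which is CCAAT read from the other strand, in HMGCS1 (chr5:43313363-43313662, minus strand, 5′ ends of the matches at -155 and -100 from the start, the first of its 2 starts) and INSIG1 (chr7:155297628-155297927, plus strand, at -170). In SREBF2 (chr22:41832855-41833154, plus strand) capitals mark the sterol element core at -133. SREBF2 was chosen after its match was seen.
HMGCS1: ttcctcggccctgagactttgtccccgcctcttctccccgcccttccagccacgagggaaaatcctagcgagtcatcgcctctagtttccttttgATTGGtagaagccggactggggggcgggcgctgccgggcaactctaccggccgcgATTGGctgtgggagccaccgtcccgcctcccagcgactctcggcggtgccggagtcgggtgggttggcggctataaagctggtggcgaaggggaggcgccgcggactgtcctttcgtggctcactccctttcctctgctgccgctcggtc
INSIG1: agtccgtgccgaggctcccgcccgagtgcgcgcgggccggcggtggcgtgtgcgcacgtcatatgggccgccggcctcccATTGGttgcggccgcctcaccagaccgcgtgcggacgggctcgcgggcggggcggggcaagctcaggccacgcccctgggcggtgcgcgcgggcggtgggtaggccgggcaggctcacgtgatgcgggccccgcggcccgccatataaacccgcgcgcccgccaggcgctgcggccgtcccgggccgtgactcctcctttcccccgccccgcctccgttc
SREBF2: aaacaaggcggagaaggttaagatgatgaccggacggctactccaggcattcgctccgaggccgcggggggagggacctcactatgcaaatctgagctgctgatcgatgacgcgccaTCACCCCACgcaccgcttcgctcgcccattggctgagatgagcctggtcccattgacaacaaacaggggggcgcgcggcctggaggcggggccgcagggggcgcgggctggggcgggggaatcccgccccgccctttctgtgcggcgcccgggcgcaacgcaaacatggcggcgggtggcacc

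The deposited values were centred for each probe set on a reference that is not stated, and were taken to be log2. They give differences between arrays and no levels, so markers of the line such as VIM, CD44 and ZEB1 could not be checked as present or absent. The ERK output genes DUSP6, a phosphatase that inactivates ERK, and EGR1, an immediate early factor, served as a check of the inhibitor. In the late window their differences with U0126 were -2.60 and -3.31 in 2D and -2.40 and -4.26 in 3D. The difference between the 5′ and 3′ actin control signals stood apart on the 2D03 U0126 arrays at 8 and 12 h, while the other 94 arrays lay between -0.36 and 0.31.

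In untreated cells the cholesterol and fatty acid genes rose over 24 to 48 h in each series. Over the 28 measured members the median late minus 0 h difference was 1.02 in 2D03, 0.93 in 2D04 and 0.52 in 3D04, where the median of all genes was between -0.02 and 0.00. LSS rose most in 2D03, by 2.04, and TM7SF2 most in 2D04, by 2.31, while PMVK, SC5D and SREBF1 passed the test in none of the 3 series. Each series was tested against an error per gene shared by all 3 series (limma, Benjamini-Hochberg over all genes, threshold 0.05). The count in a series is thus not set by its own spread alone. In these tests 24 of the 28 rose in 2D03, 24 in 2D04 and 12 in 3D04. Over all genes the shares that rose were 1.26%, 5.68% and 3.12%. In bulk RNA, fewer cells of a type and less RNA per cell cannot be told apart.

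**Figure D1:**
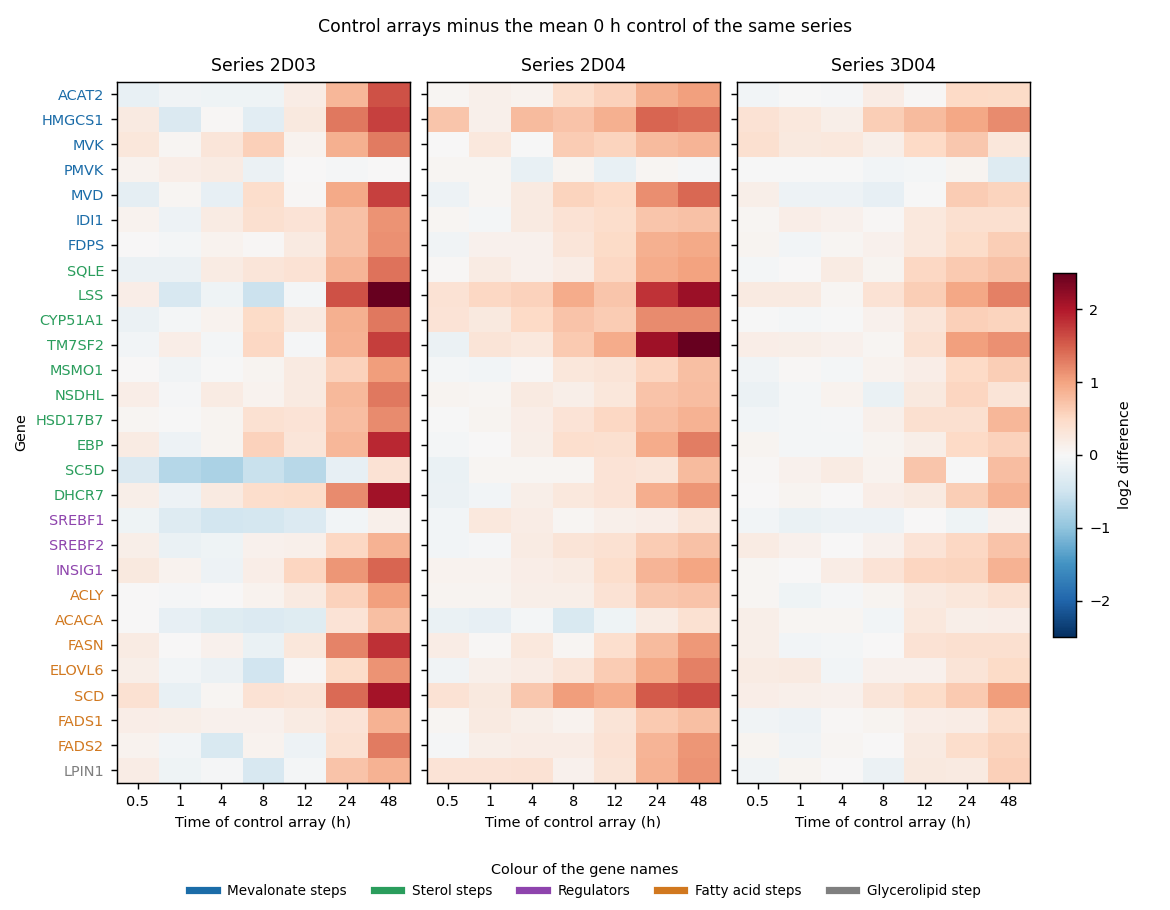
Each cell is the value of 1 control array minus the mean of the 2 control arrays at 0 h of the same series (log2 difference), for 28 genes in rows and 7 times in columns. The 24 and 48 h columns are red for most genes in all 3 series, at up to 2.51 for TM7SF2 in 2D04 at 48 h, and the rows of PMVK and SREBF1 stay pale.

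The mevalonate steps showed the rise in 6 of 7 measured genes in both 2D series and in 3 of 7 in 3D04. HMGCS1, which makes HMG-CoA and so feeds the pathway, read -0.46 and -0.36 on the 0 h controls of 2D03, -0.47 and 0.62 on those of 2D04 and 0.04 and 0.59 on those of 3D04. At 24 and 48 h its control arrays read 0.91 and 1.30 in 2D03, 1.52 and 1.47 in 2D04, and 1.27 and 1.49 in 3D04. Every late control lay above every 0 h control of its series, although repeats 2 and 4 of 2D04 lay far apart at 0 h. The late minus 0 h difference of HMGCS1 was 1.51 (SE 0.30, adjusted p = 0.000947) in 2D03, 1.42 (SE 0.30, adjusted p = 0.000966) in 2D04 and 1.06 (SE 0.30, adjusted p = 0.0224) in 3D04. IDI1, the isomerase that supplies the starter unit for farnesyl diphosphate, rose by 0.93 in 2D03, 0.72 in 2D04 and 0.41 in 3D04. FDPS, farnesyl diphosphate synthase, rose by 0.94, 0.92 and 0.54. PMVK, phosphomevalonate kinase, showed no such shift, with differences of -0.01, 0.01 and -0.13.

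Of the sterol steps, 9 of 10 measured genes rose in both 2D series and 6 of 10 in 3D04. LSS, lanosterol synthase, which closes the sterol ring, read -0.60 and -0.88 on the 0 h controls of 2D03, -0.72 and -0.40 on those of 2D04 and 0.18 and 0.55 on those of 3D04. Its 24 and 48 h controls read 0.85 and 1.75, 1.24 and 1.57, and 1.33 and 1.61 in the same order. No late control of LSS overlapped the 0 h controls. Its late minus 0 h difference was 2.04 (SE 0.25, adjusted p = 2.83e-07) in 2D03, 1.97 (SE 0.25, adjusted p = 4.65e-07) in 2D04 and 1.11 (SE 0.25, adjusted p = 0.00519) in 3D04. The 3 probe sets of LSS spanned 0.91 to 2.00 in 2D for this difference, all above 0.

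SQLE, squalene epoxidase, read -1.81 and -1.67 on the 0 h controls of 2D03, -1.58 and -1.13 in 2D04 and -1.18 and -0.78 in 3D04, and its late controls read -0.90 and -0.39, -0.43 and -0.34, and -0.32 and -0.24. It rose by 1.09 (SE 0.17) in 2D03, 0.97 (SE 0.17) in 2D04 and 0.70 (SE 0.17, adjusted p = 0.0105) in 3D04, with no overlap between late and 0 h controls. TM7SF2, a sterol reductase, rose by 1.29, 2.31 and 1.08. DHCR7, the reductase of the last step to cholesterol, rose by 1.65, 1.00 and 0.74. SC5D, a sterol desaturase, was the member of these steps that did not pass in any series, at 0.09, 0.56 and 0.39. In 2D03 its 0 h controls lay far apart, at 0.79 and -0.03, and its late controls read 0.18 and 0.75.

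Of the 3 regulators, SREBF2 and INSIG1 rose in all 3 series and SREBF1 in none. SREBF2 read -0.28 and -0.20 at 0 h in 2D03, -0.06 and 0.01 in 2D04 and 0.10 and 0.25 in 3D04, against late controls of 0.27 and 0.63, 0.61 and 0.71, and 0.68 and 0.89. Its difference was 0.69 (SE 0.14, adjusted p = 0.00175) in 2D03, 0.69 in 2D04 (SE 0.14) and 0.61 (SE 0.14) in 3D04, and the groups did not overlap. INSIG1, itself switched on by SREBP, read -0.62 and -0.66 at 0 h in 2D03, -0.01 and 0.33 in 2D04 and 0.27 and 0.56 in 3D04. Its late controls read 0.47 and 0.81, 1.00 and 1.15, and 0.98 and 1.27, and it rose by 1.28, 0.92 and 0.71 with no overlap. SREBF1 read -0.67 and -0.37 at 0 h and -0.59 and -0.40 late in 2D03, so its groups overlapped. In 2D04 it read -0.20 and -0.39 at 0 h and -0.14 and 0.00 late, and in 3D04 0.01 and -0.10 against -0.15 and 0.05. Its differences were 0.03, 0.23 and -0.01, none of which passed.

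The fatty acid steps rose in 6 of 7 genes in each 2D series and in 1 of 7, SCD, in 3D04. SCD, which makes monounsaturated from saturated fatty acids, read -1.15 and -1.10 at 0 h in 2D03, -0.90 and -0.28 in 2D04 and 0.39 and 0.51 in 3D04. Its late controls read 0.28 and 0.95, 0.94 and 1.04, and 1.10 and 1.49. It rose by 1.74 (SE 0.24, adjusted p = 3.88e-06), 1.58 (SE 0.24, adjusted p = 1.5e-05) and 0.84 (SE 0.24, adjusted p = 0.0288), and late and 0 h controls did not overlap. FASN, fatty acid synthase, read -1.99 and -1.86 at 0 h in 2D03, -0.45 and -0.48 in 2D04 and -0.18 and -0.08 in 3D04, against late controls of -0.69 and -0.10, 0.33 and 0.63, and 0.28 and 0.27. It rose by 1.53 and by 0.94 in the 2D series and was 0.41 higher (SE 0.23, adjusted p = 0.336) in 3D04. The other probe set of FASN gave 0.04 for the 2D series together and -0.23 in 3D04, so the rise of FASN was seen by 1 of its 2 probe sets.

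FADS1, a desaturase of polyunsaturated fatty acids, read 0.09 and 0.31 at 0 h in 2D03, 0.58 and 0.57 in 2D04 and 0.81 and 1.13 in 3D04. Its late controls read 0.54 and 1.06, 1.24 and 1.33, and 1.15 and 1.41, all above the 0 h controls of their series. It rose by 0.71 in 2D04 and was 0.60 higher in 2D03 and 0.31 higher in 3D04, neither of which passed. LPIN1, a phosphatidate phosphatase that supplies diacylglycerol for glycerolipids, read 0.87 and 1.03 at 0 h in 2D03, 0.59 and 1.15 in 2D04 and 1.40 and 1.49 in 3D04. Late it read 1.66 and 1.82, 1.74 and 2.00, and 1.67 and 2.04. It rose by 0.79 (SE 0.21, adjusted p = 0.0262) and 1.00 (SE 0.21, adjusted p = 0.00109) in the 2D series and was 0.41 higher in 3D04, without overlap.

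**Figure D2:**
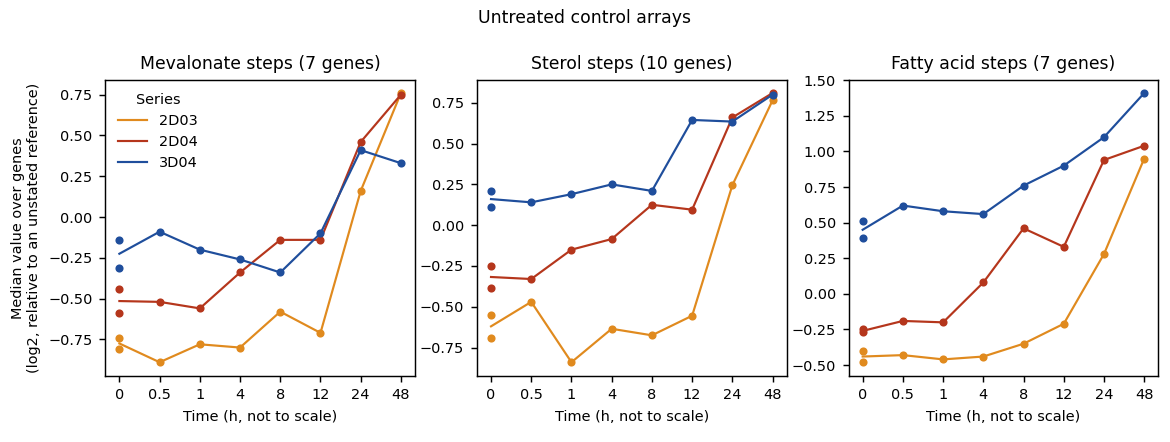
Points are the median value over the genes of a group on each control array (log2, relative to an unstated reference), lines join the means at each time, and colours are the series. In all 3 panels the 24 and 48 h points lie above the 0 h points, and at 0 h the 3D04 points lie above those of both 2D series.

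The late rise of the controls could also be read from single arrays. In 2D03, 25 of the 28 members had both late controls above both 0 h controls, against 22% of all genes. In 2D04 this held for 27 members against 24.8% of all genes, and in 3D04 for 25 members against 25.6%. Between the 2D series the size of the rise differed for 0 of 28 members (limma, 2 at an unadjusted p under 0.05), against 0.211% of all genes. Between 3D and 2D it also differed for 0 of 28 members (13 at an unadjusted p under 0.05), against 1.41% of all genes, although 27 of the 28 differences in drift, 3D minus 2D, were below 0 (median -0.42). With the EGF and DMSO-EGF arrays added to the controls, 8 members passed for that difference.

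The fit with a mean for each arm and time over both 2D series, which counts the offset between the series as noise, called 13 of the 28 members higher in late controls (2.27% of all genes). With the series as a replicate block it called 25 (6.95% of all genes). Before 24 h the fit without the block called no member. It called 0 of 28 members in the early window (0% of all genes) and 0 in the middle window (0.101% of all genes). In the early window 136 genes had an unadjusted p under 0.05, and no member reached that in either window. With the block HSD17B7 passed as higher in the middle window, at 0.30 (limma, adjusted p = 0.0481). Some of these counts rest on single arrays. In the fit over both 2D series without the block, leaving out an array also unbalances the series. The offset between them then enters the difference. Without the 48 h control of 2D03 (repeat 1) 9 members passed in that series, without the 48 h control of 2D04 (repeat 2) 12 did, and in 3D04 none passed without the 48 h control or without repeat 1 of the 0 h controls, and 5 without repeat 2. In the fit over both 2D series 6 members passed without the 24 h control of 2D04 and 8 without either 0 h control of 2D03 or either 48 h control. The difference between the 5′ and 3′ actin signals moved with the rise in 2D, from -0.36 to -0.01 on the 0 h controls to 0.09 to 0.21 on the late controls. In 3D it was 0.07 to 0.09 at 0 h and -0.01 on both late controls. Its part in the result was not tested.

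The members lay higher in 3D than in 2D at the start, before EGF was given. At 0 h, 20 of 28 members were higher in the 3D controls than in the mean of the 2D series (12.4% of all genes) and none was lower, with a median difference of 0.57. SCD differed most, by 1.31 (SE 0.21, adjusted p = 3.3e-06), followed by TM7SF2 at 1.11 (SE 0.25), FASN at 1.06 (SE 0.20), CYP51A1, lanosterol demethylase, at 1.06 (SE 0.17), LSS at 1.01 (SE 0.22) and ELOVL6, which lengthens saturated chains, at 0.90 (SE 0.17). INSIG1 (0.66), SQLE (0.57) and LPIN1 (0.54) were also higher. HMGCS1 at 0.48, SREBF1 at 0.36 and SREBF2 at 0.31 did not pass, nor did PMVK at 0.19 and SC5D at -0.14. The second probe set of FASN gave 0.07 and the lowest of 3 for LSS 0.09. For SCD the lowest of 3 gave 0.385, and the second of CYP51A1 gave 0.50, so this order holds for the probe sets read. Without repeat 2 of the 3D controls at 0 h, 10 members passed. The difference between the 5′ and 3′ actin signals was 0.07 to 0.09 on the 3D controls at 0 h and -0.36 to -0.01 on those of 2D. Its part in the offset was not tested.

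The 2D series were themselves unequal at 0 h, and the offset between cultures depended on which was taken. Against 2D03 alone, 21 of 28 members were higher in 3D04 (17.3% of all genes), with FASN at 1.79. Against 2D04 alone 4 were (4.69% of all genes), namely LSS, CYP51A1, TM7SF2 and SCD. Between the 2D series, 9 members were higher in 2D04 (10.6% of all genes), FASN by 1.46 and DHCR7 by 1.04, and SC5D was lower by 0.68. SC5D read 0.79 on repeat 1 and -0.03 on repeat 3 of 2D03, against -0.22 and -0.37 in 2D04. An offset at 0 h was thus found between series of the same culture as well.

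Against the mean of the 2D series the offset held through 12 h and was small at the end. It was unequal between the 2D series here too. At 4, 8 and 12 h the median over all members on the control arrays was 0.215, 0.295 and 0.555 in 3D04. It was 0.015, 0.255 and 0.235 in 2D04, and -0.605, -0.445 and -0.295 in 2D03. In the early window 20 members were higher in 3D controls (11.2% of all genes) and in the middle window 25 (17.4% of all genes). In the late window 1 was, CYP51A1 at 0.51 (SE 0.17, adjusted p = 0.0267), against 8.55% of all genes, and the median difference was 0.16. That call was lost without any of 3 arrays, the 24 h controls of 2D03 and 2D04 and the 48 h control of 3D04, and 5 members passed without the 48 h control of 2D03. A smaller offset late is the same measurement as a smaller rise in 3D, whose own test called no member. Within 2D, INSIG1, FASN, ELOVL6 and FADS2 were still higher in 2D04 late (4 of 28, against 10.8% of all genes).

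**Figure D3:**
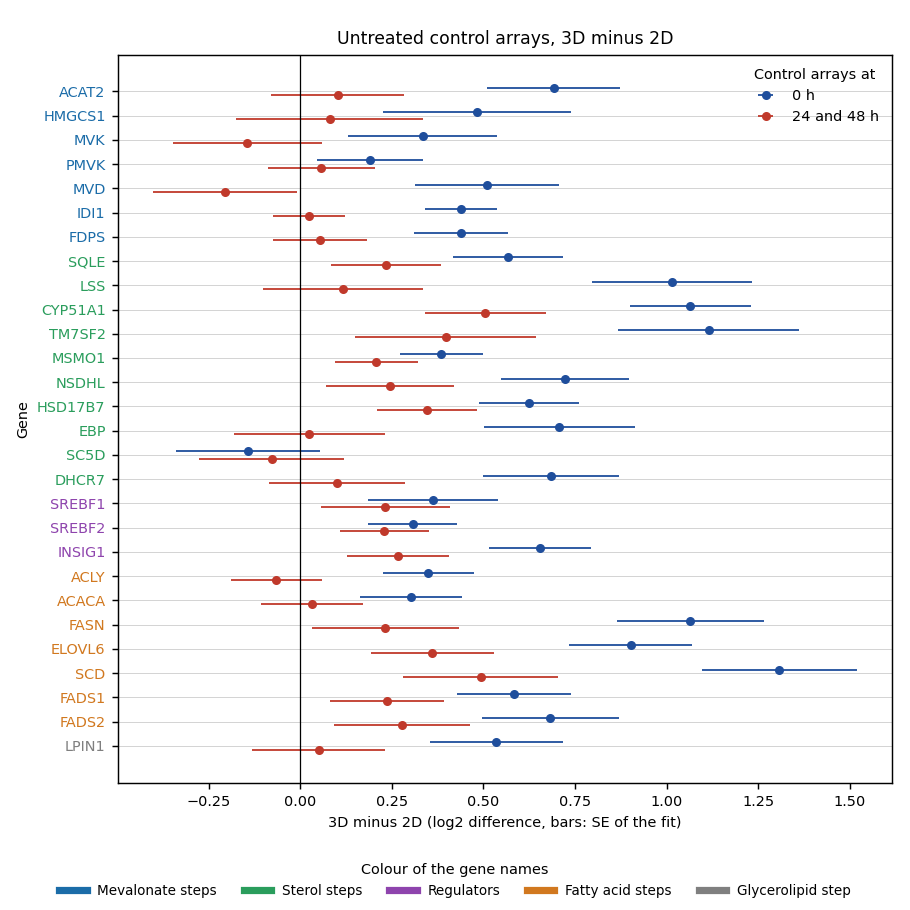
For each gene the points give the 3D minus 2D difference of the control arrays (log2) at 0 h and in the late window, with the SE of the fit as bars. At 0 h 27 of 28 genes lie to the right of 0, up to 1.31 for SCD, and in the late window the points lie between -0.20 and 0.51.

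No member passed the test for EGF or for the vehicle in 2D. EGF minus control in 2D called 0 of 28 members in the early, middle and late windows (0%, 0% and 0% of all genes), and none had an unadjusted p under 0.05, while 60, 224 and 55 of all genes did. Late, the EGF differences of the members ran from -0.07 for DHCR7 to 0.23 for SC5D. DMSO-EGF minus EGF likewise called 0 of 28 in each window (0%, 0% and 0% of all genes; 54, 100 and 99 genes at an unadjusted p under 0.05). The rise was seen in all 3 arms without inhibitor: at 48 h the median member stood 1.29, 1.33 and 1.22 above the 0 h controls in the control, EGF and DMSO-EGF arms of 2D03, 1.00, 1.04 and 0.98 in 2D04, and 0.57, 0.61 and 0.56 in 3D04. These comparisons share the 0 h control arrays.

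Most cholesterol genes were lower with U0126 late in 3D culture. In the late window, 14 of 28 members were lower with U0126 than with DMSO-EGF (18.2% of all genes). Another 6 were higher, a share of the members near that of all genes (20.9%). The lower ones were 6 of 7 mevalonate genes, 7 of 10 sterol genes and ELOVL6. The higher ones were SREBF1, the fatty acid genes ACACA, SCD, FASN and FADS1, and TM7SF2 of the sterol steps. The median was -0.95 for the mevalonate steps, -0.86 for the sterol steps and 0.36 for the fatty acid steps, against 0.03 for all genes.

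HMGCS1 read 0.36 and -0.18 with U0126 at 24 and 48 h in 3D, against 1.30 and 1.45 with DMSO-EGF, 1.19 and 1.52 with EGF and 1.27 and 1.49 in the controls. Both U0126 arrays lay below all 6 other late arrays, and the 48 h value was below both 0 h controls of the series. The difference of HMGCS1 was -1.28 (SE 0.21, adjusted p = 5.72e-05), or 2.44-fold. SQLE read -1.23 and -1.44 with U0126 against -0.22 and -0.15 with DMSO-EGF, -0.19 and -0.13 with EGF and -0.32 and -0.24 in controls. Both U0126 arrays lay below the other late arrays and below both 0 h controls, with a difference of -1.15 (SE 0.11, adjusted p = 2.58e-07).

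The largest fall was that of ACAT2, the thiolase that joins acetyl-CoA units at the head of the pathway, at -1.46 (SE 0.14, adjusted p = 2.59e-07). EBP, a sterol isomerase, followed at -1.32 (SE 0.14), then MVD, mevalonate diphosphate decarboxylase, at -1.23 (SE 0.10), and NSDHL, a sterol dehydrogenase, at -1.02 (SE 0.12). For ACAT2 the gap was -1.0 at 24 h and -1.91 at 48 h. The remaining genes that fell, with differences between -0.95 and -0.40, were CYP51A1, MVK, HSD17B7, FDPS, DHCR7, IDI1, MSMO1 and ELOVL6. PMVK had a difference of 0.00.

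SREBF1 moved the other way and furthest of all members. It read 2.30 and 2.71 with U0126 at 24 and 48 h, against -0.11 and 0.00 with DMSO-EGF, -0.03 and 0.08 with EGF and -0.15 and 0.05 in controls. The U0126 arrays stood far above the other 6, and the difference was 2.56 (SE 0.14, adjusted p = 1.37e-10), or 5.90-fold. Its gap to DMSO-EGF was 0.22 at 4 h, 0.80 at 8 h, 0.94 at 12 h, 2.41 at 24 h and 2.71 at 48 h. SREBF1 had 1 named probe set.

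SCD read 1.79 and 1.91 with U0126 against 1.06 and 1.44 with DMSO-EGF, 1.17 and 1.45 with EGF and 1.10 and 1.49 in controls, and was higher by 0.60 (SE 0.09, adjusted p = 1.72e-05) without overlap. FASN read 0.76 and 0.81 against 0.51 and 0.32 with DMSO-EGF, 0.36 and 0.37 with EGF and 0.28 and 0.27 in controls. FASN was higher by 0.37 (SE 0.10, adjusted p = 0.00486), but that call was lost at 24 h alone, with array weights and after quantile normalization. The other probe set of FASN gave 0.10. FADS1 read 1.54 and 1.87 against 1.31 and 1.38 with DMSO-EGF, 1.26 and 1.41 with EGF and 1.15 and 1.41 in controls, and was higher by 0.36 (SE 0.08, adjusted p = 0.00116). ACACA, acetyl-CoA carboxylase, was higher by 0.78 on the probe set that was read and lower, at -0.37, on its other one. The direction of ACACA is therefore not settled by these probes.

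LSS, INSIG1, SREBF2 and LPIN1 did not pass the test late in 3D. LSS read 1.62 and 1.43 with U0126 against 1.57 and 1.55 with DMSO-EGF, 1.45 and 1.85 with EGF and 1.33 and 1.61 in controls, a difference of -0.04 (SE 0.14, adjusted p = 0.878). INSIG1 read 1.09 and 0.91 against 1.26 and 1.15, 1.09 and 1.37, and 0.98 and 1.27, and the difference was -0.20 (SE 0.12, adjusted p = 0.196). Over the window the arms overlapped for both genes. SREBF2 read 0.90 and 0.77 against 0.79 and 0.93 with DMSO-EGF, with a difference of -0.03 (SE 0.10), and LPIN1 read 1.78 and 1.77 against 1.91 and 2.03, with a difference of -0.20 (SE 0.15). ACLY, which supplies acetyl-CoA to both pathways, and FADS2 and SC5D also did not pass, at 0.06, -0.06 and -0.41.

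**Figure D4:**
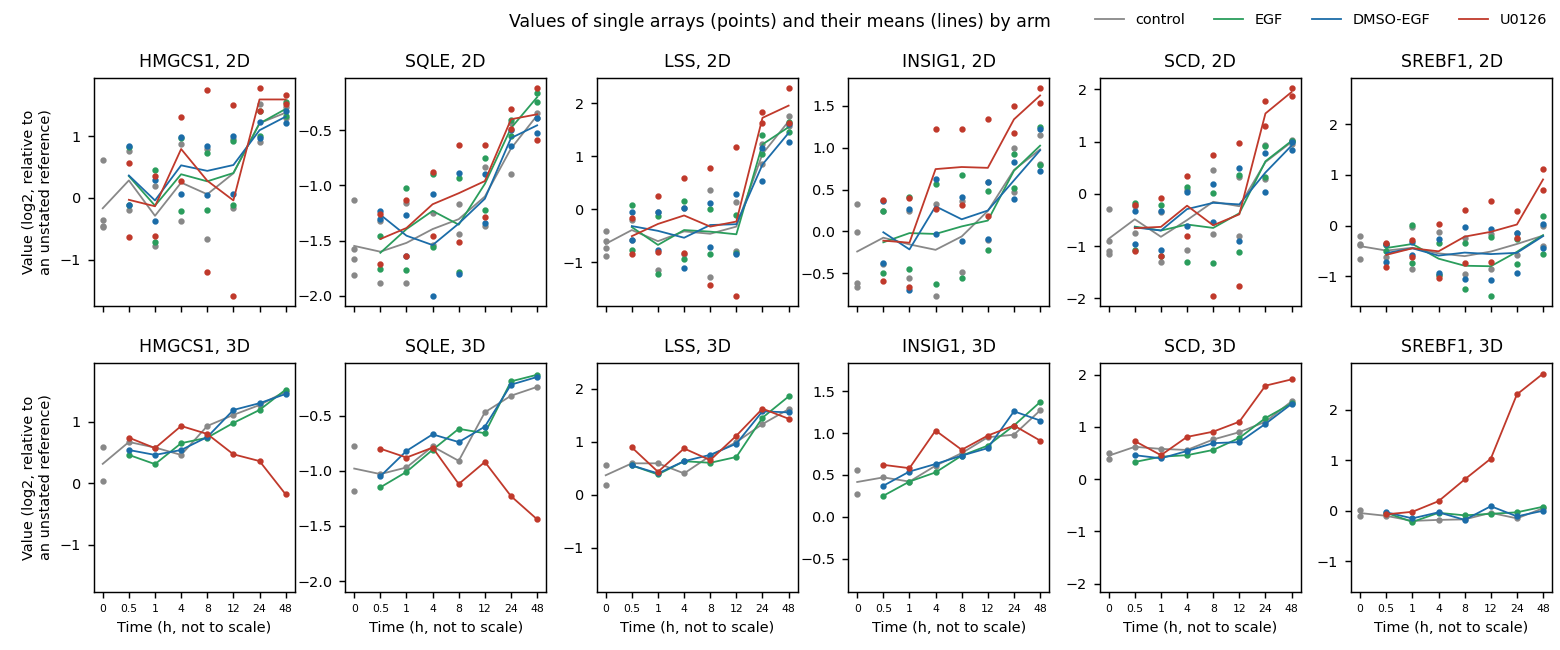
Points are single arrays and lines are means by arm over time for 6 genes, with 2D in the upper and 3D in the lower row (log2, relative to an unstated reference, time not to scale). In 3D the U0126 line of HMGCS1 and SQLE turns down to -0.18 and -1.44 at 48 h, that of SREBF1 climbs to 2.71, and those of LSS and INSIG1 end at 1.43 and 0.91, closer to the other arms.

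Read array by array, both late U0126 arrays in 3D lay below all 6 other late arrays for 15 of 28 members (17.6% of all genes) and above them for 7 (22.6% of all genes). The 15 were the 14 genes that fell and SC5D, and the 7 included ACLY. The difference between the 5′ and 3′ actin signals was -0.14 to -0.09 on these U0126 arrays and -0.01 to 0.05 on the other late 3D arrays. Its part in the result was not tested. The 20 calls were 17 or more under every alternative run.

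Few members were called before 24 h in 3D. In the early window 0 of 28 members were called (limma, 1 at an unadjusted p under 0.05, against 0.328% of all genes called). In the middle window 4 were higher (7.17% of all genes), namely SREBF1 at 0.65 (SE 0.11, adjusted p = 0.000627), TM7SF2 at 0.45 (SE 0.10), SCD at 0.29 (SE 0.07) and FASN at 0.25 (SE 0.08). CYP51A1 was lower, at -0.30 (SE 0.08), as the only member of 28 (8.19% of all genes). SQLE at -0.27 (adjusted p = 0.0565) and HMGCS1 at -0.09 did not pass. At 12 h, HMGCS1 already stood -0.72 from DMSO-EGF after 0.39 at 4 h. On the 12 h arrays 6 of 7 mevalonate genes (median -0.21) and 8 of 10 sterol genes (median -0.27) lay below DMSO-EGF. LSS and INSIG1 lay at most 0.40 from DMSO-EGF at 4, 8 and 12 h.

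In 2D no cholesterol gene was called lower with U0126. In the late window TM7SF2 alone of 28 members was called, higher by 0.85 (SE 0.25, adjusted p = 0.018), against 6.55% of all genes higher. The medians were -0.02 for the mevalonate steps and 0.12 for the sterol steps. The 48 h arrays of 2D04 differed from this, with 6 of 7 mevalonate genes (median -0.07) and 6 of 10 sterol genes (median -0.13) below DMSO-EGF. SC5D stood at -0.70 and HSD17B7 at -0.46 there, and both late U0126 arrays of 2D04 lay below the other late arrays of the series for HSD17B7, as 1 of 28 members (15.8% of all genes). HMGCS1 read 1.42 and 1.52 with U0126 in 2D03 and 1.78 and 1.68 in 2D04 at 24 and 48 h, against 0.97, 1.22, 1.23 and 1.42 with DMSO-EGF. It was above DMSO-EGF in all 4 pairs of arrays, with a difference of 0.39 (SE 0.53) that did not pass. SQLE read -0.49, -0.12, -0.31 and -0.59 against -0.50, -0.52, -0.64 and -0.39, an overlap, and its difference was 0.14 (SE 0.25).

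SREBF1, SCD and INSIG1 were above DMSO-EGF in all 4 pairs of 2D arrays. SREBF1 read -0.25 and 0.71 in 2D03 and 0.29 and 1.11 in 2D04 with U0126 against -0.93, -0.45, -0.15 and 0.03. SCD read 1.30, 2.02, 1.78 and 1.88 against 0.04, 0.85, 0.78 and 1.00, with no overlap. INSIG1 read 1.18, 1.71, 1.5 and 1.54 against 0.39, 0.72, 0.83 and 1.22. These 3 genes, with differences of 0.84 (SE 0.33), 1.08 (SE 0.52) and 0.69 (SE 0.37), passed only with the series as a replicate block, as did FASN at 0.51 and FADS1 at 0.33. That fit called 6 members higher (12.7% of all genes). The other probe set of FASN gave 0.10 late in 2D. TM7SF2 was no longer called without the 24 h DMSO-EGF array of 2D03 or without either late U0126 array of 2D04.

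LSS read 1.62 and 2.28 with U0126 in 2D03 and 1.83 and 1.63 in 2D04, against 0.54, 1.61, 1.15 and 1.27, above DMSO-EGF in each pair at 0.70 (SE 0.47, adjusted p = 0.449). LPIN1 read 1.90, 2.51, 1.91 and 1.66 against 1.78, 2.04, 1.61 and 1.58. FASN read -0.52, 0.68, 0.86 and 1.18 against -0.90, -0.04, 0.40 and 0.70, and SREBF2 read 0.42, 0.76, 0.60 and 0.95 against 0.31, 0.31, 0.57 and 0.79. All 4 pairs of arrays were higher with U0126 for each of these genes, but both arms spanned a wide range between the series and times, and none passed in the fit without the block.

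Earlier in 2D, 0 of 28 members were called in the early window (limma, 0 at an unadjusted p under 0.05, 0.0168% of all genes called) and 0 in the middle window (1 at an unadjusted p under 0.05, 7.38% of all genes called). With the block 5 were higher in the middle window, ACACA, INSIG1, FASN, HSD17B7 and IDI1 (6.96% of all genes). ACACA stood at 0.54 and FASN at 0.44 on the probe sets read, and at 0.06 and -0.05 on their other ones. The 2D03 U0126 arrays at 8 and 12 h, which stood apart in the actin control, bear on this window. They also count in the errors of the other 2D windows and of the test between cultures. HMGCS1 read -1.20 and -1.59 on them, against 0.04 and 0.07 with DMSO-EGF, while in 2D04 it read 1.76 and 1.51 against 0.84 and 1.00. The 3 probe sets of HMGCS1 gave -0.16 to 0.33 over the middle window, and 0.48 to 0.85 without these 2 arrays. Those of SCD gave -0.18 to 0.39, and 0.53 to 0.72 without them. At 8 and 12 h this leaves U0126 arrays of 2D04 alone against DMSO-EGF arrays of both series, in a fit with no series term. The offset between the 2D series therefore enters the ranges without these 2 arrays. Within 2D04, HMGCS1 stood 0.92 and 0.51 above DMSO-EGF at 8 and 12 h.

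**Figure D5:**
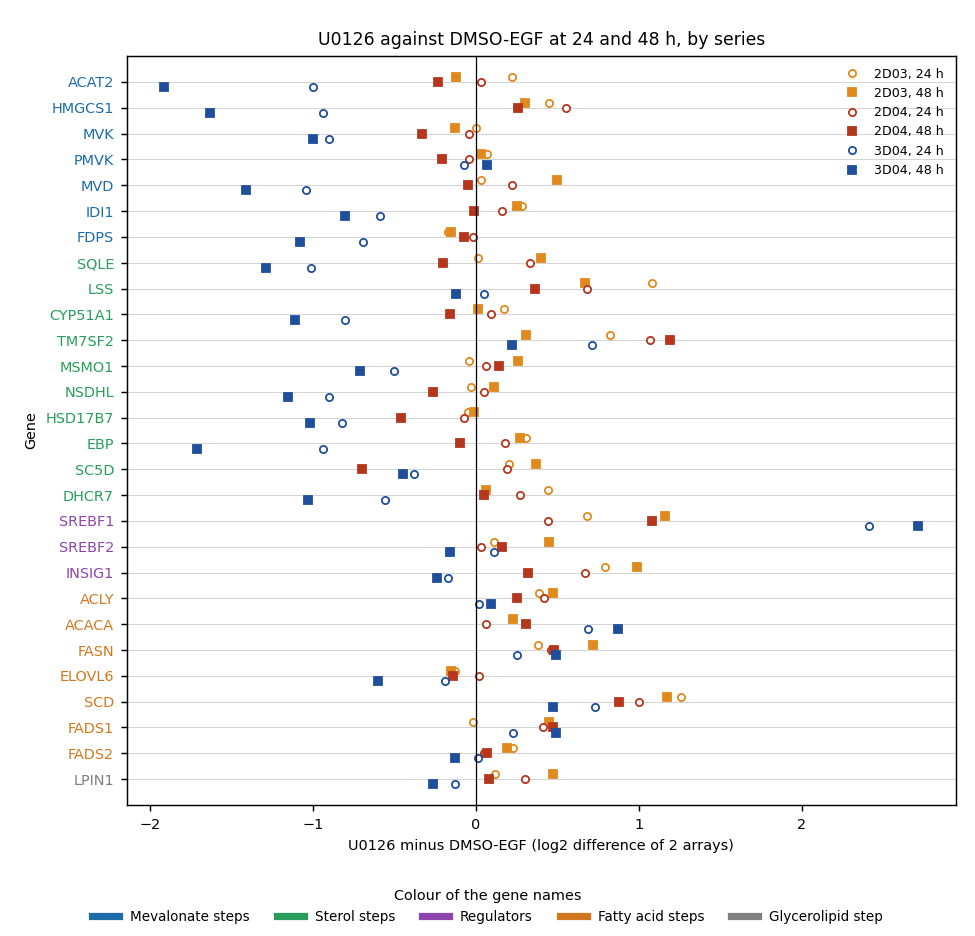
Each symbol is the U0126 array minus the DMSO-EGF array of the same series and time (log2 difference), for 28 genes at 24 h (open) and 48 h (filled) in 3 series. For ACAT2, HMGCS1, MVD, SQLE and EBP the 3D04 symbols lie between -1.91 and -0.94 and the 2D symbols between -0.23 and 0.55, while for SREBF1 all 6 symbols lie above 0.

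The difference between the cultures was tested directly, as the U0126 effect in 3D minus that in 2D. In the late window it was below 0 for 14 members (5.91% of all genes) and above 0 for 2 (4.33% of all genes), with a median of -0.72. HMGCS1 differed by -1.68 (SE 0.38, adjusted p = 0.00129), EBP by -1.49 (SE 0.23), ACAT2 by -1.43 (SE 0.15), MVD by -1.40 (SE 0.28) and SQLE by -1.28 (SE 0.18, adjusted p = 3.96e-07). DHCR7 differed by -1.0 (SE 0.13). INSIG1 was among the 14, at -0.90 (SE 0.17, adjusted p = 0.000162), although in 3D it did not pass and in 2D it passed, as higher, only with the replicate block. SREBF1 differed by 1.72 (SE 0.19, adjusted p = 3.56e-09), and ACACA by 0.57 on the probe set read and by -0.21 on the other. HMGCS1 lost the call without the 48 h arrays of 3D, at -1.33 (adjusted p = 0.156).

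The members whose U0126 effect was not shown to differ between cultures were PMVK, LSS, TM7SF2, SC5D, SREBF2, LPIN1 and all fatty acid genes but ACACA. FASN differed by -0.14 (SE 0.14), SCD by -0.48 (SE 0.28), SREBF2 by -0.21 (SE 0.14) and LPIN1 by -0.44 (SE 0.33). LSS, at -0.73 (SE 0.30, adjusted p = 0.13), had a difference close to that of MSMO1 at -0.71 (SE 0.10), which passed with a smaller error. The 2D03 U0126 arrays at 8 and 12 h, on which LSS read -1.42 and -1.63, count in these errors. DMSO-EGF read -0.71 and -0.85 for LSS at those times. The part of these arrays in the errors was not tested. In the middle window the effect was lower in 3D for 4 members (0.91% of all genes), SQLE at -0.54, HSD17B7 at -0.47, IDI1 at -0.43 and MSMO1 at -0.30. Against 2D03 alone 8 members passed there and against 2D04 alone 2.

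Other genes of the pathway and its neighbours came from lists of related genes. All 6 measured genes of further sterol synthesis and SREBP targets fell with U0126 late in 3D (18.2% of all genes), among them TMEM97, a sterol-responsive membrane protein, at -1.78 (SE 0.16), NPC1, which exports cholesterol from lysosomes, at -0.94 (SE 0.10), and LBR, which carries sterol reductase activity, at -0.91 (SE 0.06). None of the 6 was called late in 2D, while 2 were lower with the replicate block (12.3% of all genes). All 6 passed as lower in the test between cultures (5.91% of all genes), with TMEM97 at -1.64 (SE 0.16). Of 5 measured genes that process SREBP, INSIG2, which retains the SREBP escort, fell by 1.39 in 3D (SE 0.18), and SCAP, the escort itself, rose by 0.30 (SE 0.09). At 1 of 5 each way, these shares are near those of all genes. INSIG2 had risen by 1.51 (SE 0.26) in the late controls of 3D04.

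Targets of LXR, the sterol-sensing nuclear receptor that also switches on SREBF1, and genes of cholesterol efflux moved in both directions. Of 8 measured, 5 rose (20.9% of all genes) and 2 fell (18.2% of all genes) with U0126 late in 3D. MYLIP, a ligase that removes lipoprotein receptors, rose by 1.77 (SE 0.18), LPCAT3, which remodels phospholipids, by 1.04 (SE 0.09) and ABCG1, a cholesterol exporter, by 0.75 (SE 0.18), while SMPDL3A and SCARB1 fell by 0.69 and 0.53. In 2D, MYLIP and the exporter ABCA1 rose by 0.76 and 0.48. The effect was larger in 3D than in 2D for MYLIP, by 1.01 (SE 0.27, adjusted p = 0.00808).

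Of 13 measured fatty acid oxidation genes 9 rose with U0126 late in 3D (20.9% of all genes) and 5 in 2D (6.55% of all genes), with PPARA, a factor that drives oxidation genes, at 0.79 and 0.67 and CPT2, which passes fatty acids into mitochondria, at 0.83 and 0.58. ACAA1, a peroxisomal thiolase, rose by 0.91 in 3D and was the 1 gene of that list whose effect passed in the test between cultures (0.37, SE 0.12). Of 14 other fatty acid and glycerolipid synthesis genes 5 rose and 2 fell late in 3D (20.9% and 18.2% of all genes), and 3 rose and 1 fell in 2D (6.55% and 6.02%). The share that fell late in 3D was below that of all genes. ACSL1, which activates fatty acids, rose by 1.34 in 3D and 1.31 in 2D, ACACB, the mitochondrial carboxylase, by 0.95 and 0.39, and LPIN2, a relative of LPIN1, fell by 1.38 and 0.76. In the control drift of 2D these lists had smaller medians than the members: the late minus 0 h medians were 0.18 for the further sterol genes, 0.04 for oxidation genes and 0.02 for the other fatty acid genes, against 0.93 for the members, with ERG28, a scaffold of sterol enzymes, rising by 1.08 and ACSL1 by 1.22. In 3D04 the further sterol genes had the same median as the members, 0.52 for both, and 3 of the 6 passed as higher (3.12% of all genes), while the oxidation genes and the other fatty acid genes had medians of 0.05 each.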

How the data were processed

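Expression was read from the authors' deposited table of 22930 probe sets on 96 arrays. Per the submitters' processing notes the values come from RMA, so the deposited values were taken as log2 signals, although the log base and the centring are not given in the sources used here. Single values ran from -5 to 5.7, and the medians of the arrays from -0.06 to 0.03. Array controls (524) and probe sets with several symbols (125) were left out, 2991 were unnamed, and 19290 named 11874 genes. A gene with several probe sets (4449 genes) was read from the one with the largest SD, which can favour larger changes. No column was left without a sample, and no pair of arrays held identical values. Arrays labelled 05h were treated as 0.5 h.

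Tests used lmFit and eBayes of limma 3.58.1 (R 4.3.3), with no variance trend because centred values carry no level, and Benjamini-Hochberg adjustment over all genes and a threshold of 0.05. The 2D fit had a mean for each arm and time, and the 3D fit a term per time and a mean per arm and window. The fits of the controls by series had a mean per series, arm and window, with an error shared by the series. The test between cultures used all arrays after 0 h with a term per series and time. The procedure was tested on simulated data. Values per array are given for HMGCS1, SQLE, LSS, INSIG1, SREBF1, SREBF2, FASN, SCD, LPIN1 and FADS1, and members are named with statistics when they had the largest (up to 6 each way) or smallest differences of a comparison. From the other lists up to 3 called genes each way are named. The members and lists were chosen with earlier results of these data known.

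The 2D repeat numbers follow the series label. Over 378 pairs of groups the deviations of same-numbered arrays correlated at 0.292 to 0.819 (median 0.635), so the numbers pair the samples, and a fit with the series as a replicate block stands beside each 2D result it changes. Alternatives were the mean of the probe sets, single probe sets, a variance trend, median centring, quantile normalization, array weights, a filter keeping 60% of genes, other times, series and arms, and each array omitted in turn. Added after the data had been seen were EGF as the control arm, the probe set rule without the 2 arrays that stood apart in the actin control, each 2D series alone against 3D, the 3D times left out of the test between cultures, and the arrays left out of the 3D minus 2D control comparison.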

Additional observations from a re-analysis of the deposited data

Results flagged for a closer look

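The effect of U0126 differed between 3D and 2D for 16 members in the late window, by the direct test of the difference (limma, 3D minus 2D, log2). SREBF1 differed by 1.72. ACACA differed by 0.57 on the probe set read and by -0.21 on its other one, so its direction is not settled. The others were ACAT2 at -1.43, CYP51A1 at -0.98, DHCR7 at -1.0, EBP at -1.49, FDPS at -0.78, HMGCS1 at -1.68, HSD17B7 at -0.77, IDI1 at -0.86, INSIG1 at -0.90, MSMO1 at -0.71, MVD at -1.40, MVK at -0.82, NSDHL at -0.99 and SQLE at -1.28. In the middle window the difference passed for HSD17B7 (-0.47), IDI1 (-0.43), MSMO1 (-0.30) and SQLE (-0.54). Culture and series cannot be told apart in these values.

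Among the 4 control arrays of 2D at 0 h, repeat 4, from series 2D04, stood far above the others for HMGCS1 (0.62) and for CYP51A1 (0.37). These were 2 of 28 genes examined this way, and chance gives about 1 in 20. Repeat 2 of 2D04 read -0.47 and -0.07. In that series HMGCS1 read 0.88 with U0126 at 0 h, 0.76 and 0.20 in the 0.5 and 1 h controls, and -0.82 with DMSO at 0 h. CYP51A1 read 0.49, 0.50, 0.39 and 0.01 on the same arrays. The difference between the 5′ and 3′ actin signals was -0.36 on repeat 2 and on the DMSO array, and -0.12 on repeat 4. Its part in these values was not tested.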

How the results depend on the processing

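Counts are members called of 28. U0126 late in 3D (20), the late difference between cultures (16), and the 3D minus 2D controls at 0 h and in the early and middle windows (20, 20 and 25) stayed within 1.5 times under every alternative run, except that the 0 h count ran from 10 to 21 with single arrays left out. EGF, the vehicle and U0126 in the early window gave 0 throughout. In the late 2D drift the main count of 13 became 1 at 24 h alone, 23 with the arms without inhibitor together, 25 with the replicate block and 24 in 2D04 alone, and 6 to 11 with single arrays left out. The middle 2D drift, at 0, gave 1 with the replicate block and 2 in 2D04 alone. The late drift ranged from 9 to 25 in 2D03 (main 24), 12 to 23 in 2D04 (main 24) and 0 to 13 in 3D04 (main 12) with single arrays left out. In 3D04 it was 21 with the arms together and 6 after quantile normalization. The drift difference between the 2D series, at 0, was 1 with the arms together. That between cultures, at 0, was 8 with the arms together, 1 after quantile normalization and 0 to 2 with arrays left out. The late 3D minus 2D count of the controls (1) was 2 with the mean of the probe sets, 0 after quantile normalization and 0 to 5 with arrays left out.

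U0126 late in 2D (1) gave 0 at 24 h alone, at 48 h alone and with EGF as the control arm, 6 with the replicate block, 3 in 2D03 alone, 7 in 2D04 alone and 0 to 1 with arrays left out. In the middle window (0) it gave 5 with the replicate block, 5 in 2D03 alone and 4 in 2D04 alone. It gave 1 with the probe set chosen without the 2D03 U0126 arrays at 8 and 12 h. U0126 in the middle window in 3D (5) gave 10 with array weights, and the difference between cultures there (4) gave 8 against 2D03 alone and 2 against 2D04 alone. Of 59 calls of named genes, 37 held in every alternative run for them, 22 were lost in at least 1, and 0 reversed. The replicate block changed no other call count by over 1.5 times. The cause of these shifts was not tested. With 2 arrays per arm and window in each series, small changes cannot be shown.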
